A study of Mus musculus with 94 samples.

Results

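The Lx3 and Lx4 elements are copies of 6 subfamilies of LINE-1 (L1) retrotransposons in the mouse genome, and reads counted on them in cortex and hippocampus of a Down syndrome model are described here. They were chosen by name alone, as every element of the deposited L1 count table whose name begins with Lx3 or Lx4, without Lx3B_dup3459 and Lx4A_dup9528. These were 19900 of 430083 elements, or 4.63% of the table: 3395 copies of Lx3A, 2268 of Lx3B, 2470 of Lx3C, 5123 of Lx3_Mus, 4335 of Lx4A and 2309 of Lx4B. Of the copies left out, Lx3B_dup3459 held 87644 of the 196645 counts of Lx3B in cortex and 82943 of 164561 in hippocampus, so that the sums of Lx3B given here leave out about as many reads as they hold. Lx4A_dup9528 held 121 and 66 counts.

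L1s are retrotransposons that copy themselves through an RNA intermediate with a reverse transcriptase they encode. The Lx subfamilies are old L1 lineages of the murine rodents, and most of their copies are truncated and carry many mutations, so that they are thought to be unable to move. Such copies can still appear in RNA, either from their own start or as a stretch of a longer transcript that runs through them, and the deposited counts do not tell which.

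The 94 libraries came from male mice whose age the labels give as 3 to 4 months, 48 from cortex and 46 from hippocampus, and 46 mice had a library of each tissue. Trisomic Ts65Dn mice (TS) carry an extra segment of mouse chromosomes and came from B6EiC4Sn.BLiA-Ts(1716)65Dn/DnJ females crossed with B6C3F1/OlaHsd males, and their wild-type littermates (WT) were the controls. Treated mice (-t) received lamivudine, an inhibitor of reverse transcriptase, at 3 mg/kg in drinking water for 4 months before the tissue was taken. Non-treated mice (-nt) received none. Whether the age of 3 to 4 months is that at the start of treatment or at sampling is not given. The cortex groups held 13 TS-t, 9 TS-nt, 17 WT-t and 9 WT-nt libraries and the hippocampus groups 13, 8, 17 and 8 in the same order. The model is limited in that its extra segment covers only part of the genes orthologous to human chromosome 21. The table holds L1 elements only, so that neither the tissues nor the trisomy could be checked on marker genes here. All non-treated mice have an animal label beginning with 20, whereas the labels of 6 and 8 of the 17 WT-t and of 1 and 4 of the 13 TS-t mice begin with 18 and 19, and what the label start stands for is not given.

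L1 counts per library ranged from 186545 to 1165192 in cortex, with a median of 323416, and from 178454 to 403378 in hippocampus, with a median of 259745. In cortex, 9 libraries lay far from the others along the first principal component of all L1 elements (WT-t mice 1, 3, 4 and 47, TS-t mice 2, 8 and 14, TS-nt mouse 23 and WT-nt mouse 24), and no hippocampus library did. These libraries had a count on 3168 to 52819 elements (median 31478), against 33998 to 132569 (median 50183) in the other cortex libraries. Values without them, or without WT-nt mouse 24 alone, are given beside the results that moved.

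Lx3 and Lx4 copies held a median of 4.26% of the L1 counts of a cortex library, with a range from 2.71% to 5.77%, and 3.91% of those of a hippocampus library, with a range from 3.36% to 4.6%. In counts these were 7593 to 67256 per cortex library (median 13264) and 7083 to 15041 per hippocampus library (median 10221). Their share of counts was thus close to their share of elements. The neighbouring Lx and Lx2 copies, 24993 in number, held a median of 5.25% and 4.67%, and the 23523 Lx5 and Lx6 copies held 4.83% and 4.78%. Among the 6 subfamilies, Lx3C had the highest median share in cortex, 0.912%, followed by Lx4A with 0.852% and Lx3_Mus with 0.834%. Lx3B had 0.667%, Lx3A 0.489% and Lx4B 0.385%. The share of Lx3B, and its values below, are without Lx3B_dup3459. With that copy, Lx3B held 196645 counts over all cortex libraries, against 156310 in Lx3C. The lengths of the copies are not in the table, so that these shares are not levels per length.

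Counts were distributed over the copies in different ways. In Lx3_Mus, Lx3A, Lx4A and Lx4B, 244, 151, 163 and 131 copies held 50% of the cortex counts of their subfamily, and in hippocampus these were 131, 70, 81 and 92 copies. In Lx3B and Lx3C, only 11 and 7 copies held 50% in cortex and 4 and 6 in hippocampus. Without Lx3B_dup3459, the most abundant copy of Lx3B in cortex was Lx3B_dup2379, with 19% of the Lx3B counts. In hippocampus it was Lx3B_dup4472, with 22%. Lx3C_dup2484 held 12.3% of the Lx3C counts in cortex and 13.4% in hippocampus. Lx3A_dup8166 held 11.1% and 17.1% of Lx3A, Lx4B_dup2175 held 7.80% and 7.94% of Lx4B, Lx3_Mus_dup1456 held 4.28% and 4.72% of Lx3_Mus, and Lx4A_dup764 held 3.87% and 6.18% of Lx4A. Over all cortex libraries, between 78.7% (Lx3A) and 86.9% (Lx4A) of the copies of a subfamily had a count, and in hippocampus between 50.2% (Lx3A) and 65.9% (Lx4B). A total of 1429 Lx3 and Lx4 copies had no count in any library. A single library had a count on few of them, with medians between 259.5 (Lx3B) and 559 (Lx3_Mus) copies in cortex. Near-identical copies share reads, which the authors' counting assigned to the most probable copy, so that values of single copies are less certain than those of subfamily sums.

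Summed levels of a subfamily are given in CPM, a count relative to all L1 counts of the library (CPM as in edgeR) after scaling with TMM factors over both tissues. Differences are log2 fold changes of edgeR's quasi-likelihood test with their standard error (SE), and a subfamily or copy was called when its Benjamini-Hochberg adjusted p-value, over all subfamilies or all elements tested, was below 0.1. Since CPM is relative to all L1 counts, a shift common to all L1s would not appear. In bulk tissue, fewer cells with a transcript and less transcript per cell cannot be told apart.

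In Lx3A, the median level in cortex was 4984 CPM in WT-nt (range 4561 to 13017), 4781 in WT-t (3542 to 5635), 4767 in TS-nt (4262 to 4979) and 4792 in TS-t (4515 to 8041). In hippocampus it was 4583 in WT-nt (4012 to 5204), 4494 in WT-t (3978 to 5237), 4211 in TS-nt (4019 to 4799) and 4617 in TS-t (4207 to 5177). The ranges of the 4 groups overlapped in both tissues, and a single WT-nt cortex library, of mouse 24, stood at 13017 CPM. The hippocampus library of the same mouse had the lowest Lx3A level of its group, 4012 CPM.

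In Lx3B, cortex medians were 6661 CPM in WT-nt (5952 to 9429), 6859 in WT-t (5934 to 9388), 6606 in TS-nt (4174 to 6877) and 6386 in TS-t (5079 to 7347). Hippocampus medians were 6800 (5938 to 8467), 6623 (6106 to 7695), 6331 (5013 to 7366) and 6416 CPM (5647 to 7344) in the same order. Lx3B was the subfamily with the most similar medians in the tissues, 6593 CPM over all cortex and 6597 CPM over all hippocampus libraries.

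In Lx3C, cortex medians were 8646 CPM in WT-nt (7895 to 12438), 10267 in WT-t (7605 to 15406), 9785 in TS-nt (4917 to 13318) and 7963 in TS-t (6282 to 10850). Hippocampus medians were 7851 (6195 to 10348), 8806 (6489 to 13081), 9511 (5896 to 11596) and 6874 CPM (6228 to 10706). Over all hippocampus libraries, the standard deviation was 1808 CPM in Lx3C and between 349 (Lx3A) and 609 CPM (Lx3B) in the other subfamilies. Over all cortex libraries it was 2164 CPM in Lx3C, 2041 in Lx3_Mus and 1318 in Lx3A, so that Lx3C stood apart less there.

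In Lx3_Mus, cortex medians were 8356 CPM in WT-nt (7545 to 21056), 8290 in WT-t (7535 to 10837), 7991 in TS-nt (7433 to 8766) and 8564 in TS-t (7712 to 12871). Hippocampus medians were 7429 (7155 to 8183), 7328 (6127 to 8442), 7261 (6788 to 8424) and 7401 CPM (5852 to 8520). Every hippocampus median was below every cortex median, and the highest cortex values, 21056 and 12871 CPM, came from WT-nt mouse 24 and TS-t mouse 2.

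In Lx4A, cortex medians were 8640 CPM in WT-nt (7797 to 13709), 8490 in WT-t (7810 to 9004), 8079 in TS-nt (6843 to 8679) and 8398 in TS-t (7630 to 9980). Hippocampus medians were 8297 (7628 to 9201), 7988 (7163 to 9085), 8226 (7469 to 8541) and 8103 CPM (7501 to 8933). Groups and tissues overlapped widely. In Lx4B, cortex medians were 4147 CPM in WT-nt (3365 to 7252), 3865 in WT-t (3124 to 5249), 3659 in TS-nt (3212 to 3871) and 3753 in TS-t (3112 to 4633). Hippocampus medians were 3600 (3032 to 4165), 3408 (2482 to 4281), 3495 (2656 to 4057) and 3510 CPM (2841 to 4330).

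**Figure D1:**
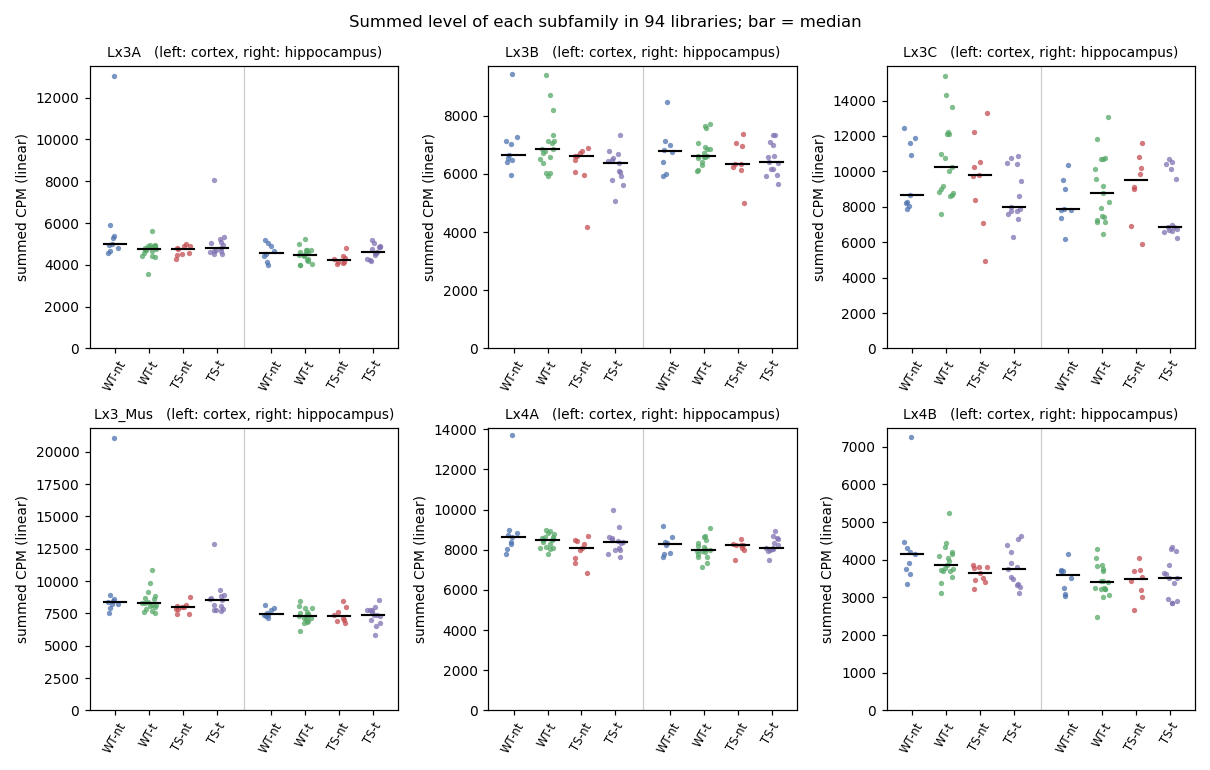
Summed level of each subfamily in CPM (vertical axis, linear, from 0) in every library, by group, with cortex on the left and hippocampus on the right of each panel; bars are group medians. The WT-nt cortex library of mouse 24 stands at the top of its group in Lx3A, Lx3B, Lx3_Mus, Lx4A and Lx4B, and Lx3C ranges from 5896 to 13081 CPM over the hippocampus libraries.

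The tissues were compared over all 94 libraries, as the mean of the cortex groups against that of the hippocampus groups. Of the 6 subfamilies, 5 were called and all of these were higher in cortex, where over all subfamilies tested 71.4% were called, 39.8% as higher in cortex. Lx3_Mus differed most, with a log2 fold change of 0.23 (SE 0.043, adjusted p = 3.84e-06), and was higher in cortex in 44 of 46 mice. Lx3A followed with 0.17 (SE 0.044, adjusted p = 0.000393, 33 of 46 mice), Lx4B with 0.17 (SE 0.043, adjusted p = 0.00038, 33 mice), Lx3C with 0.17 (SE 0.064, adjusted p = 0.0202, 39 mice) and Lx4A with 0.05 (SE 0.025, adjusted p = 0.0557, 28 mice). Lx3B did not pass the test, at -0.002 (95% interval -0.07 to 0.07, adjusted p = 0.969), and was higher in cortex in 24 of 46 mice. Over the mean of all groups, no subfamily sum differed between the tissues by more than 0.23 on the log2 scale.

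Without the 9 cortex libraries that stood apart, Lx3_Mus fell to 0.13 (adjusted p = 6.83e-07), Lx4B to 0.12 (adjusted p = 0.00405) and Lx3A to 0.08 (adjusted p = 0.00109), and all were still called. Lx3C (0.10, adjusted p = 0.175) and Lx4A (0.01, adjusted p = 0.731) were no longer called, and Lx3B was called as lower in cortex (-0.06, adjusted p = 0.0794). With the mouse as a block, Lx4A also lost its call (0.02, adjusted p = 0.508), and Lx3_Mus, Lx3A, Lx3C and Lx4B kept theirs. Within single conditions, 4 of 6 subfamilies were called in WT-nt (44.4% of all subfamilies tested), 3 in WT-t (44.4%), 0 in TS-nt (12.8%) and 1, Lx3_Mus, in TS-t (44.4%), all higher in cortex. In WT-nt, Lx4A lost its call with the mouse as a block (0.08, adjusted p = 0.228). DESeq2 called 5 in WT-nt, with Lx3C among them (0.29, adjusted p = 0.0915). Without the 9 libraries that stood apart, 2 were called in WT-nt (Lx3A and Lx3_Mus) and 2 in TS-t, Lx3_Mus as higher and Lx3B as lower in cortex (-0.13, adjusted p = 0.0962). Without the most abundant element of each subfamily, 0 were called in WT-t and 0 in TS-t. In TS-nt, none of the 6 had an unadjusted p below 0.05 (18.8% of all subfamilies tested) and DESeq2 called none either. The 95% interval there reached from -0.09 to 0.30 in Lx3_Mus. Whether the tissue difference itself depends on the genotype was tested as the difference of TS-nt vs. WT-nt between tissues. None of the 6 was called (0% of all subfamilies tested), and DESeq2 called 0. Only Lx4A, 1 of 6, had an unadjusted p below 0.05 (5.26% of all subfamilies tested). Of the neighbouring sets, all 6 Lx and Lx2 subfamilies were called as higher in cortex, with a median log2 fold change of 0.27, and 2 of 4 Lx5 and Lx6 subfamilies, with a median of 0.06, against 0.17 in Lx3 and Lx4 and 0.01 over all subfamilies.

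No Lx3 or Lx4 subfamily was called in any of 12 comparisons of genotype and treatment with edgeR. In cortex, TS-nt vs. WT-nt gave 0 of 6 calls (0.752% of 133 subfamilies), but 4 of 6 at an unadjusted p below 0.05 (21.8%). The log2 fold change was -0.35 in Lx3A (SE 0.13, p = 0.00897, adjusted p = 0.157), -0.30 in Lx3_Mus (SE 0.13, adjusted p = 0.169), -0.27 in Lx4B (SE 0.10, adjusted p = 0.157) and -0.19 in Lx4A (SE 0.071, adjusted p = 0.157). It was -0.16 in Lx3B (adjusted p = 0.234) and -0.03 in Lx3C (adjusted p = 0.945). The median of the 6 was -0.23, against 0.01 over all subfamilies, and it was -0.40 in the 6 Lx and Lx2 and -0.18 in the 4 Lx5 and Lx6 subfamilies.

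These values moved with 1 WT-nt library. Without the cortex library of mouse 24, which held 1165192 L1 counts, the log2 fold changes were -0.10 in Lx3A, -0.05 in Lx3_Mus, -0.12 in Lx4B, -0.07 in Lx4A, -0.08 in Lx3B and 0.004 in Lx3C, and the smallest p was 0.113. DESeq2 called Lx3A (-0.41), Lx3_Mus (-0.35), Lx4B (-0.31) and Lx4A (-0.23), each with an adjusted p of 0.0756, in a model of the 4 groups, and none of the 6 without the same library. In hippocampus, TS-nt vs. WT-nt gave 0 of 6 calls (1.52% of 132 subfamilies) and 0 at an unadjusted p below 0.05 (8.33%), and DESeq2 called 0. The log2 fold changes ranged from -0.11 in Lx3A (95% interval -0.22 to 0.003) to 0.15 in Lx3C (-0.15 to 0.45).

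**Figure D2:**
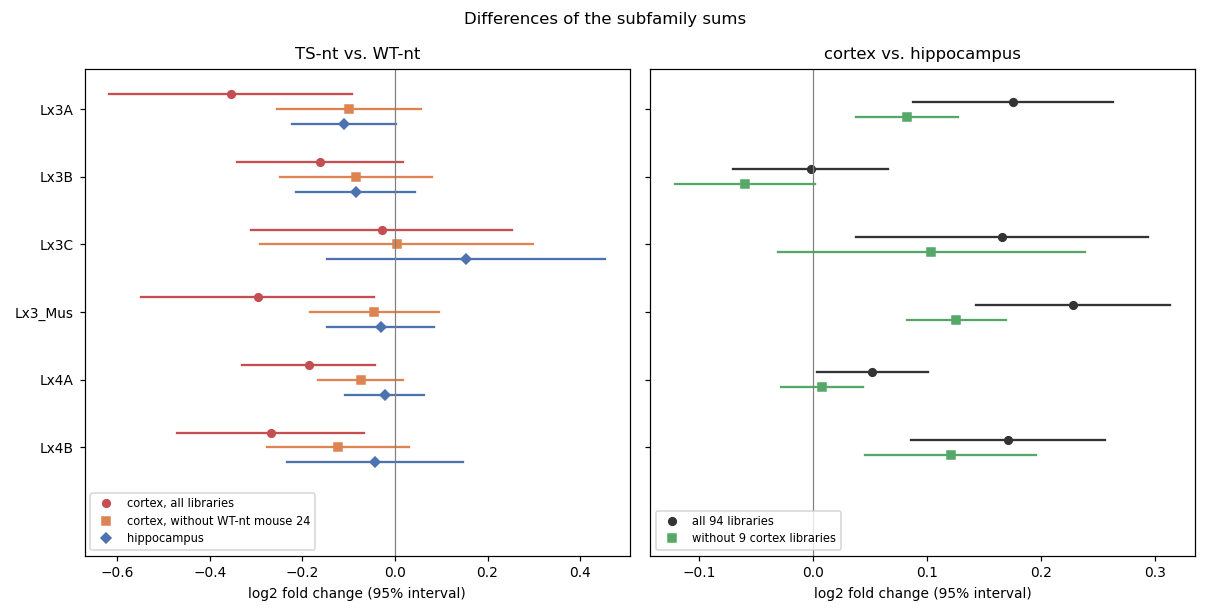
Log2 fold changes of the subfamily sums (points) with 95% intervals (lines) for TS-nt vs. WT-nt on the left and cortex vs. hippocampus on the right. Leaving out the cortex library of WT-nt mouse 24 moves Lx3A from -0.35 to -0.10, and leaving out the 9 cortex libraries that stand apart moves Lx3_Mus from 0.23 to 0.13 between the tissues.

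The treatment was compared within each genotype. In WT cortex, for WT-t vs. WT-nt, 0 of 6 subfamilies were called (0% of all subfamilies tested) and 1 had an unadjusted p below 0.05 (13.5%), which was Lx3A at -0.36 (SE 0.11, p = 0.00265, adjusted p = 0.318). It was -0.10 without mouse 24 of WT-nt (p = 0.149). In cortex of TS mice (TS-t vs. TS-nt), 0 of 6 were called (0%) and 0 had an unadjusted p below 0.05 (3.01%), and DESeq2 called 0 in both. In hippocampus, 0 of 6 were called in WT mice (0%; 0 at an unadjusted p below 0.05, 5.3%) and in TS mice (0.758%; 1 at an unadjusted p below 0.05, 7.58%), where in the latter Lx3A had a log2 fold change of 0.13 (SE 0.051, p = 0.0145, adjusted p = 0.447) and DESeq2 called 0. The interaction of treatment and genotype gave 0 of 6 calls in cortex (0%) and 3 at an unadjusted p below 0.05 (19.5%), Lx3A at 0.48 (SE 0.17, adjusted p = 0.234), Lx3_Mus at 0.35 (adjusted p = 0.244) and Lx4A at 0.19 (adjusted p = 0.244). DESeq2 called Lx3_Mus (0.40) and Lx4A (0.24) in this interaction, each with an adjusted p of 0.0872, and gave no adjusted p for Lx3A. Without mouse 24, edgeR's values were 0.22, 0.10 and 0.08 and DESeq2 called 0. In hippocampus the interaction gave 0 of 6 calls (0%) and 1 at an unadjusted p below 0.05 (7.58%), Lx3A at 0.16 (adjusted p = 0.473).

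Treated trisomic mice were also set against treated and non-treated WT mice. In TS-t vs. WT-t of cortex, 0 of 6 were called (0%) and 2 had an unadjusted p below 0.05 (5.26%), Lx3C at -0.29 (SE 0.11, adjusted p = 0.497) and Lx3B at -0.16 (SE 0.070, adjusted p = 0.559). In TS-t vs. WT-nt of cortex, 0 of 6 were called (0.752%) and 1 had an unadjusted p below 0.05 (6.02%), Lx4B at -0.20 (SE 0.092, adjusted p = 0.673). Without mouse 24 it was -0.05 (p = 0.475). In hippocampus, 0 of 6 were called in TS-t vs. WT-t (0%; 0 at an unadjusted p below 0.05, 9.09%). The comparison of TS-t with WT-nt there also gave 0 calls (0.758%; 0 at an unadjusted p below 0.05, 9.09%), and DESeq2 called 0 in all 4 of these comparisons. The comparisons share control groups and are not independent. Limiting the treated mice to those with an animal label beginning with 20 gave no call either, and the part of the label start in the values was otherwise not tested.

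Single copies were tested among all elements with enough counts. These included 251 Lx3 and Lx4 copies in cortex, which held 45.5% of the CPM of all copies, 183 in hippocampus, which held 49.7%, and 345 over both tissues. From edgeR's common dispersion, libraries of the same group varied by a coefficient of 0.747 (cortex) and 0.622 (hippocampus) for single elements and of 0.222 and 0.148 for subfamily sums, so that a small change of 1 copy was mostly not detectable.

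Between the tissues, 72 of the 345 copies were called, 41 higher in cortex and 31 higher in hippocampus. Without the 9 cortex libraries that stood apart, 88 of 325 were called, 55 of them higher in cortex. With all libraries, the 72 copies called were 20.9% of those tested, against 23.3% of all 7551 elements tested. Of all elements, 12.6% were called higher in cortex and 10.6% higher in hippocampus. With all libraries, the share of Lx3 and Lx4 copies called was thus near that of all L1s. Calls in both directions occurred in every subfamily: 8 and 4 of 40 copies in Lx3A (higher in cortex and in hippocampus), 6 and 6 of 43 in Lx3B, 5 and 3 of 52 in Lx3C, 10 and 8 of 92 in Lx3_Mus, 10 and 8 of 78 in Lx4A, and 2 and 2 of 40 in Lx4B. The median log2 fold change of the 345 was 0.14, against 0.09 over all elements, and 213 were positive. With DESeq2's size factors in edgeR the calls were 62 higher in cortex and 29 higher in hippocampus, and with DESeq2 74 and 31. The shares of all elements called are not given for these alternatives or without the 9 libraries, so that those counts have no background here.

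Among the copies higher in hippocampus, Lx4A_dup7322 ranged from 0 to 37.8 CPM in cortex (median 2.93) and from 0 to 168 in hippocampus (median 60.9), a log2 fold change of -3.48 (SE 0.32, adjusted p = 1.21e-20). Its ranges overlapped, although 21 of 48 cortex libraries and 1 of 46 hippocampus libraries were at 0. Lx3B_dup2528 had medians of 3.44 CPM in cortex (0 to 41.6) and 41.9 in hippocampus (0 to 113), a change of -2.64 (SE 0.33, adjusted p = 4.79e-12). The copy with the next number, Lx3B_dup2527, moved the same way, with medians of 2.98 (0 to 27.9) and 28.4 CPM (0 to 83.4) and a change of -2.41 (adjusted p = 1.81e-07). Lx3B_dup5374 was more abundant, with medians of 221 CPM in cortex (0 to 1197) and 634 in hippocampus (60.8 to 1835), a change of -1.55 (SE 0.19, adjusted p = 2e-10). Lx3A_dup3218 changed by -1.28 (adjusted p = 3.25e-07), from a median of 72.7 CPM in hippocampus to 30.5 in cortex.

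Among the copies higher in cortex, Lx4A_dup6599 had medians of 81.0 CPM in cortex (0 to 258) and 20.5 in hippocampus (0 to 88.0), a log2 fold change of 1.96 (SE 0.26, adjusted p = 2.01e-10). Lx3A_dup1923 had medians of 90.0 (0 to 197) and 25.9 CPM (0 to 94), a change of 1.68 (SE 0.23, adjusted p = 4.66e-10). Lx3C_dup1451 had medians of 84.3 (0 to 330) and 7.23 CPM (0 to 84.6), a change of 2.59 (SE 0.35, adjusted p = 3e-09). The ranges of the tissues overlapped in each of these copies. Lx3_Mus_dup1761 was at 0 in 32 of 46 hippocampus libraries and had a median of 24.2 CPM in cortex (0 to 66.1), a change of 2.86 (adjusted p = 8.78e-08). Lx3_Mus_dup2592 had medians of 28.9 (0 to 78.4) and 1.88 CPM (0 to 43), a change of 2.05 (adjusted p = 1.3e-06).

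The most abundant copies changed less between the tissues. Lx3B_dup2379 had medians of 1415 CPM in cortex (498 to 2755) and 963 in hippocampus (554 to 2070), a log2 fold change of 0.48 (SE 0.10, adjusted p = 6.08e-05). Lx3B_dup4472 went the other way, with medians of 1163 (221 to 1696) and 1412 CPM (730 to 2014) and a change of -0.35 (SE 0.10, adjusted p = 0.00678). The 2 leading copies of Lx3B among those kept thus had opposite signs, while the subfamily sum did not pass the test between tissues. Lx4A_dup764 changed by -0.42 (adjusted p = 0.00819), with medians of 370 and 483 CPM, and Lx3_Mus_dup1456 by 0.32 (adjusted p = 0.0783), with medians of 435 and 345. Lx3A_dup8166, with medians of 635 and 734 CPM, did not pass the test without the mouse as a block (-0.22, adjusted p = 0.173) and passed it with the block (-0.26, adjusted p = 0.097). Lx3C_dup2488 changed by 0.49 (adjusted p = 0.0151), and Lx3C_dup2484 (0.19, adjusted p = 0.589), Lx3C_dup2486 (0.29, adjusted p = 0.307) and Lx4B_dup2175 (0.38, adjusted p = 0.251) did not pass.

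**Figure D3:**
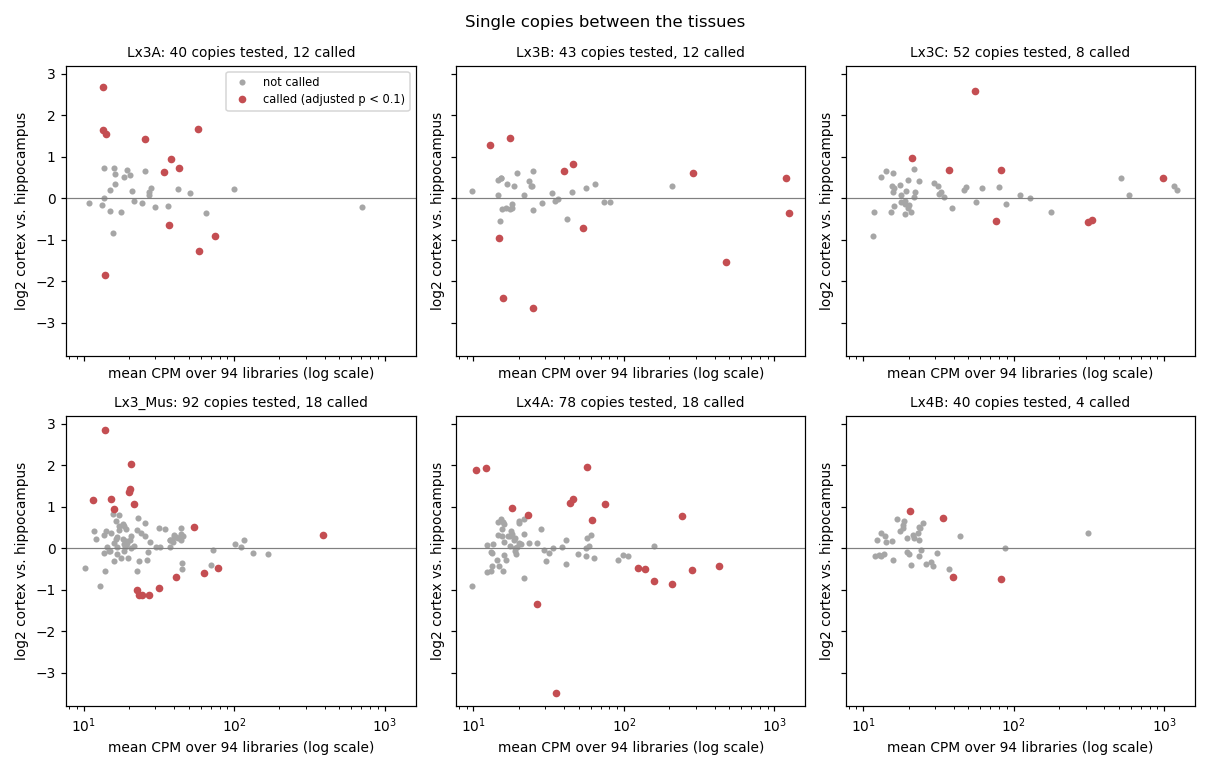
Log2 fold change of cortex vs. hippocampus (vertical axis, linear) against the mean CPM over 94 libraries (horizontal axis, log scale) for the 345 copies tested, by subfamily; red points are called. Calls lie on both sides of 0 in every subfamily, and Lx4A_dup7322 is the lowest point at -3.48.

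Between genotype and treatment groups, edgeR called none of the Lx3 and Lx4 copies in 12 comparisons. In cortex no L1 element was called in any of the 6 comparisons (0% of 5416 elements). The Lx3 and Lx4 copies with an unadjusted p below 0.05 were 5 of 251 in TS-nt vs. WT-nt (1.48% of all elements), 4 copies for TS-t vs. WT-nt (1.68%), 1 copy for TS-t vs. TS-nt (0.831%), 3 in WT-t vs. WT-nt (1.48%), 8 copies for TS-t vs. WT-t (1.75%) and 3 in the interaction (1.07%). In hippocampus, 0.0708% of 4238 elements were called in TS-nt vs. WT-nt, 0.118% for TS-t vs. WT-nt and 0% in the other 4 comparisons. There, 7 of 183 copies had an unadjusted p below 0.05 in TS-nt vs. WT-nt (4.13%), 7 copies for TS-t vs. WT-nt (4.11%), 4 copies for TS-t vs. TS-nt (3.26%), 4 in WT-t vs. WT-nt (3.16%), 5 copies for TS-t vs. WT-t (3.89%) and 4 in the interaction (3.37%). In a model of all 4 groups, DESeq2 called 0 copies in cortex and 1 in hippocampus, Lx4B_dup4733 in TS-t vs. WT-t (0.94, adjusted p = 0.0954). In models of only the groups compared, it called Lx3C_dup1451 in TS-t vs. WT-nt of cortex (1.69, adjusted p = 0.0115) and Lx4B_dup4733 again (0.92, adjusted p = 0.0479), and gave no adjusted p for 192 of 251 and 116 of 183 copies in these comparisons (110 of 183 for TS-t vs. WT-t of hippocampus with 4 groups).

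The copies with the smallest p in a comparison are given with edgeR's values, none of which passed the threshold, and those that also have a known position follow further on. In cortex, Lx3_Mus_dup1034 in TS-nt vs. WT-nt had medians of 12.7 CPM in TS-nt (0 to 39.8) and 31.2 in WT-nt (3.19 to 174) and a log2 fold change of -1.49 (p = 0.0153). The highest WT-nt value was that of mouse 24, without which the fold change was -0.83 (p = 0.18). Lx3C_dup5866 in TS-t vs. TS-nt had medians of 23.5 (0 to 70.5) and 9.11 CPM (0 to 31.9) and a value of 1.56 (p = 0.0409). Lx3_Mus_dup12515 in TS-t vs. WT-t had medians of 39.3 (0 to 94.8) and 14.4 CPM (0 to 42.4) and a value of 1.28 (p = 0.00855). All of these ranges overlapped. In hippocampus, Lx4A_dup8042 had medians of 69.5 CPM in WT-nt (26.1 to 94.9), 104 in WT-t (38.7 to 288), 136 in TS-nt (63.4 to 185) and 94.6 in TS-t (44 to 241). Its value was 0.88 in WT-t vs. WT-nt (p = 0.00381) and -1.22 in the interaction (p = 0.0042). Lx3C_dup1053 in TS-t vs. WT-nt had medians of 27.1 (0 to 123) and 9.92 CPM (0 to 27) and a value of 1.89 (p = 0.00603), and Lx3_Mus_dup5028 in TS-t vs. TS-nt medians of 18.3 (0 to 71.3) and 52.1 CPM (7.45 to 106) and a value of -1.35 (p = 0.0193). In the interaction in cortex, Lx4A_dup10469 had a value of -2.64 (p = 0.0137), with medians of 5.75 CPM in WT-nt, 17.3 in WT-t, 24.8 in TS-nt and 9.85 in TS-t.

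The study lists 3 of the copies with a position in GRCm38/mm10, chosen on these same libraries, so that a test on them is not independent evidence. Lx3C_dup1451 lies on the plus strand at chr4:78267017-78268379 (1363 bp), Lx3_Mus_dup9085 on the minus strand at chr12:49361840-49365463 (3624 bp) and Lx4B_dup4733 on the minus strand at chr14:102945660-102946066 (407 bp). No gene of the GENCODE annotation of GRCm38 overlaps them, so that they are intergenic. The nearest protein-coding gene is Ptprd, a receptor-type tyrosine phosphatase of synapses, 55.1 kb from Lx3C_dup1451, and Kctd12, an auxiliary subunit of GABA-B receptors, 30.5 kb from Lx4B_dup4733.

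In CPM scaled within each tissue, Lx3C_dup1451 had a median in cortex of 34.3 in WT-nt (10.1 to 88.9), 84.7 in WT-t (0 to 317), 63.8 in TS-nt (30.7 to 151) and 122 in TS-t (16.5 to 231). In hippocampus its medians were 7.66, 8.33, 7.77 and 4.71 CPM. The groups overlapped, and the difference of mean CPM for TS-t vs. WT-nt in cortex was 120 against 37.1 (exact two-sided permutation p = 0.000772, n = 13 and 9), and p = 0.00131 without the highest library, of TS-t mouse 8. With edgeR it was 1.69 (p = 0.00125) and did not pass the correction over all elements. WT-t vs. WT-nt of cortex, where it was also the copy with the smallest p, gave 1.39 (SE 0.48, p = 0.00529), and TS-t vs. WT-t gave 0.30 (p = 0.451).

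Lx3_Mus_dup9085 had a median in cortex of 118 CPM in WT-nt (49.9 to 250), 142 in WT-t (0 to 283), 171 in TS-nt (136 to 210) and 178 in TS-t (83.5 to 284). In hippocampus its medians were 123 (103 to 254), 149 (105 to 265), 262 (95.3 to 309) and 225 CPM (38.9 to 330), so that both trisomic groups had higher medians than both WT groups, with overlapping ranges. The 0 in WT-t cortex came from mouse 1, whose library had a count on 3168 elements, and the next lowest WT-t value was 86.5 CPM. The cortex library of mouse 1 was also at 0 in Lx3C_dup1451 and Lx4B_dup4733. In cortex the mean of this copy for TS-t vs. WT-nt was 183 against 121 CPM (exact permutation p = 0.0148). Without the highest library, of TS-t mouse 39, it was 175 against 121 CPM (exact permutation p = 0.025). Mouse 24 was the highest WT-nt library, and without it the WT-nt mean was 105 CPM (exact permutation p = 0.000806). Leaving it out was chosen after the values were seen. With edgeR the log2 fold change without mouse 24 was 0.82 (p = 0.0174) and did not pass the correction over all elements. In hippocampus Lx3_Mus_dup9085 was the copy with the smallest p in TS-nt vs. WT-nt (0.75, p = 0.00344, adjusted p = 0.871 with edgeR).

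Lx4B_dup4733 had a median in cortex of 31.6 CPM in WT-nt (16 to 149), 35.9 in WT-t (0 to 150), 57.9 in TS-nt (22 to 117) and 55.3 in TS-t (15.8 to 181). The means for TS-t vs. WT-nt were 80.2 against 42.4 CPM (exact permutation p = 0.0914). The unadjusted p was thus not below 0.05, but it was on a log2 scale (exact permutation p = 0.0486). Without the highest library, of TS-t mouse 8, the means were 71.8 against 42.4 CPM (exact permutation p = 0.155). The highest WT-nt library was that of mouse 24, without which the WT-nt mean was 29.2 CPM (exact permutation p = 0.00327) and edgeR's log2 fold change 1.45 (p = 0.00234), against 0.87 (p = 0.0588) with it. Neither of these 2 edgeR values passed the correction over all elements. Leaving out mouse 24 was chosen after the values were seen. In hippocampus its medians were 74.6 (18.6 to 154), 96.4 (40.1 to 127), 80.6 (44.7 to 266) and 143 CPM (49.4 to 358), and TS-t vs. WT-t gave 0.86 (p = 0.00107, adjusted p = 0.41 with edgeR). Between tissues it was higher in hippocampus, with a log2 fold change of -0.75 for cortex vs. hippocampus (SE 0.19, adjusted p = 0.00113).

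**Figure D4:**
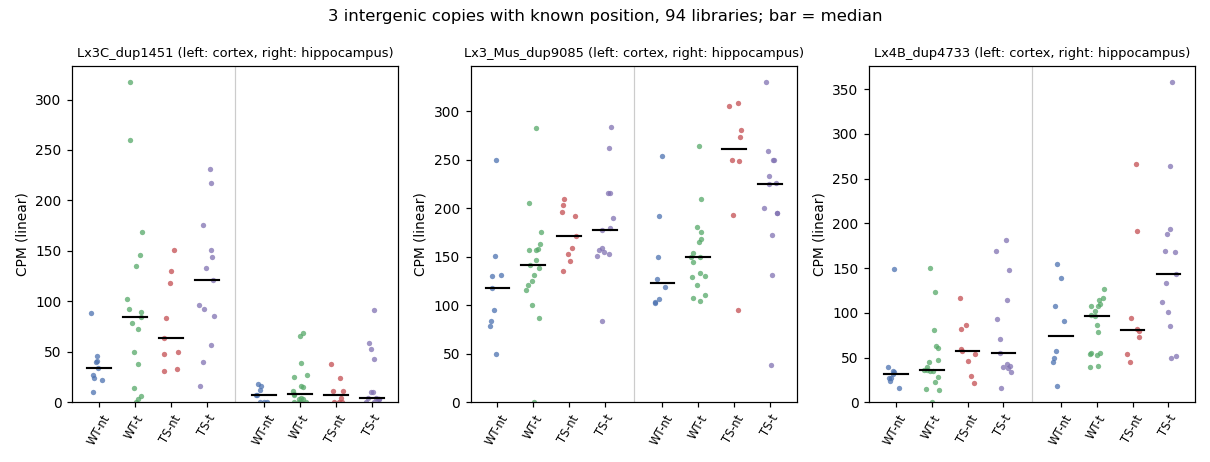
CPM within the tissue (vertical axis, linear, from 0) of the 3 copies with a known position in every library, by group, with cortex on the left and hippocampus on the right of each panel; bars are group medians. In cortex, Lx3C_dup1451 has a median of 34.3 in WT-nt and 122 in TS-t, and its highest hippocampus library is at 91.7.

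Some copies were high or low in the same mice in both tissues. For each copy that passed the filter in both tissues, the 46 mice with both libraries were counted by whether their cortex and hippocampus values lay on the same side of the median of the tissue. The median of 161 Lx3 and Lx4 copies was 24 of 46 mice (16 to 44), as it was for all 3722 elements (12 to 46). At least 34 mice were on the same side in 9 of the 161 copies (5.59%), against 113 of 3722 elements (3.04%). This limit and these copies were chosen after their values were seen, and no test is given.

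Within each subfamily, the 9 copies bear nearby numbers. They were Lx3C_dup2489 with 44 mice on the same side, Lx3B_dup2360 and Lx4B_dup2175 with 42 each, Lx3C_dup2482, Lx3C_dup2484, Lx3C_dup2486 and Lx3C_dup2488 with 40 each, Lx3B_dup2356 with 36 and Lx4B_dup2173 with 34. The numbers of elements followed their order in the genome in 55 of 55 pairs of the same subfamily among the 60 elements with a position in the study's list, but the positions of these 9 are not in the sources used here. Within the run of Lx3C copies, counts over all libraries were 15996, 33415, 32003 and 27018 on Lx3C_dup2482, Lx3C_dup2484, Lx3C_dup2486 and Lx3C_dup2488 and 14032 on Lx3C_dup2489, whereas the copies numbered between them had 72, 28 and 16. The 5 copies held 46.4% of all Lx3C counts in cortex and 46.9% in hippocampus, with a range of 9.05% to 74.0% between cortex libraries and of 21.4% to 69.0% between hippocampus libraries.

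Lx3C_dup2489 fell into separate ranges. In cortex, 22 libraries were at 0 to 79.5 CPM and 26 at 406 to 2635, with none between, and in hippocampus 21 were at 0 to 68.7 and 25 at 381 to 1397. All 46 mice were in the same range in both tissues, 21 in the low and 25 in the high one. Libraries in the high range were found in every group, in 6 of 9 WT-nt, 9 of 17 WT-t, 3 of 9 TS-nt and 8 of 13 TS-t cortex libraries, and among each start of the animal labels, in 4 of 7 cortex libraries with labels beginning with 18, 6 of 12 with 19 and 16 of 29 with 20. Between groups the log2 fold changes of this copy were not called, and the counts of mice per range are given without a test since the ranges were seen in the data.

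Lx3B_dup2360 split in nearly the same way. It was at 0 in 22 cortex libraries, of which 21 were in the low range of Lx3C_dup2489, and in 21 hippocampus libraries, which were all in the low range. The other copies of the run went the opposite way: Lx3C_dup2482, Lx3C_dup2484, Lx3C_dup2486 and Lx3C_dup2488 each lay on the other side of the median from Lx3C_dup2489 in 42 of 48 cortex and 42 of 46 hippocampus libraries. Lx4B_dup2175 lay on the same side as Lx3C_dup2484 in 46 of 48 and 42 of 46 libraries. The sum of these 4 Lx3C copies went from 746 to 8053 CPM in cortex, with a median of 2901, and from 1119 to 7600 in hippocampus, with a median of 2738, and 40 of 46 mice were on the same side in both tissues. What distinguishes the mice was not tested.

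**Figure D5:**
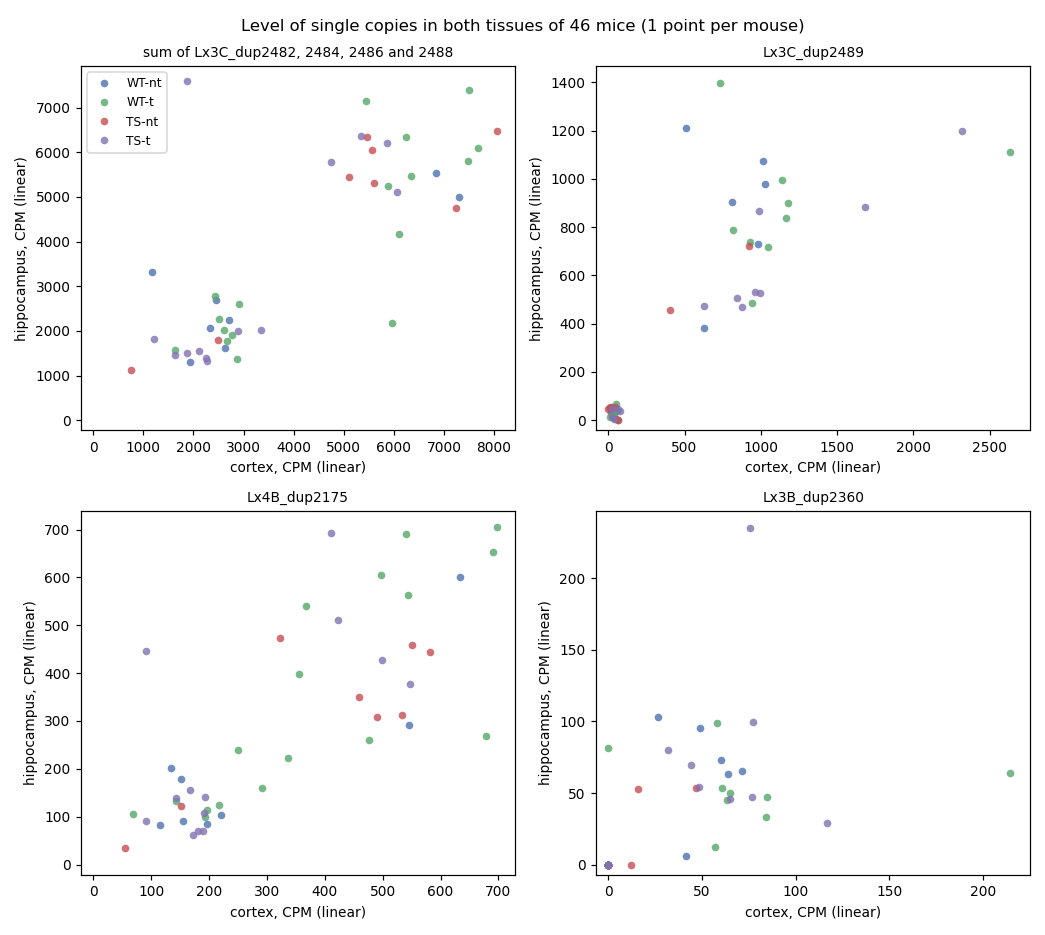
CPM scaled within each tissue in cortex (horizontal axis, linear) and hippocampus (vertical axis, linear) of the same mouse, 1 point per mouse and 46 mice, coloured by group, for the sum of 4 Lx3C copies, Lx3C_dup2489, Lx4B_dup2175 and Lx3B_dup2360. For Lx3C_dup2489, 21 mice sit below 300 CPM in both tissues and 25 above 300 in both, and all 4 groups occur in each set.

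The spread of these 5 copies entered the sum of Lx3C. Without them, Lx3C in TS-nt vs. WT-nt of cortex had a log2 fold change of -0.35 (SE 0.11, p = 0.00222, adjusted p = 0.101) in place of -0.03, a fit chosen after the values were seen. Without mouse 24 as well it was -0.16 (SE 0.068, p = 0.0261, adjusted p = 0.745). In the other comparisons of cortex, with mouse 24 included and without the run, the value for TS-t vs. WT-t went from -0.29 to 0.02 (adjusted p = 0.985), that for WT-t vs. WT-nt from 0.12 to -0.23 (adjusted p = 0.285) and the interaction from -0.26 to 0.36 (adjusted p = 0.195). In hippocampus, TS-nt vs. WT-nt went from 0.15 to -0.16 (adjusted p = 0.308). The sign of the Lx3C sum thus turned with these copies in several comparisons, none of which passed the threshold either way. Between the tissues, Lx3C without the run was higher in cortex by 0.11 (SE 0.037, adjusted p = 0.00697).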

How the data were processed

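Total RNA of cortex and hippocampus was sequenced in 94 libraries. The authors deposited a table of raw counts per L1 element (430083 elements), which is the only unit used here. Per the study's methods, reads with up to 5 alignments each were kept and L1 elements were quantified by locus with Telescope, which reassigns such reads among copies. The submitters' processing notes name Trimmomatic 0.38, HISAT2 2.1.0, StringTie 2.1.3b, GRCm38 and mm10. The strand setting of the counting is not given in the sources used here. Reads of a transcript that runs through a copy and of one that starts in it cannot be told apart. The methods state that RNA was pooled in groups of 3, and whether a library is a pool is not clear, so that p-values measure only the spread between libraries.

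Counts were summed by subfamily and analysed in R 4.3.3 with edgeR 4.0.16: TMM factors, library sizes from all L1 counts, filterByExpr, robust glmQLFit and glmQLFTest, with Benjamini-Hochberg adjustment over all subfamilies or elements tested and a threshold of 0.1. The 4 groups of a tissue shared 1 fit, and the tissues were compared in a fit of 8 groups. DESeq2 1.42.0 was an alternative, with other size factors, filters, sums, libraries and a mouse block. Exact permutation tests used scipy 1.17.1 with Python 3.11.15. Libraries whose first principal component lay over 3 median absolute deviations away from that of the middle library were called apart. The scripts were tested on simulated data. No library columns were identical. Mouse numbers pair the libraries because both tissues came from the same animal, and the deviations of the tissues had a median correlation of 0.153 over 46 mice (-0.341 to 0.711).

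Named were all 6 subfamilies, the 3 copies the study lists with a position, the 5 most abundant copies of each tissue and the most abundant of each subfamily, called copies or else the copy with the smallest p in each comparison, and the 5 copies with the smallest p in each direction between tissues. The copies that follow the mouse were added after their values were seen. The members and lists were chosen with earlier results of these data known. The genes next to Lx3_Mus_dup9085 are not reported here.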

Additional observations from a re-analysis of the deposited data

Results flagged for a closer look

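Of 36 groups of 4 to 10 libraries examined, 9 had a highest or lowest library far from the nearest of the others. For a group taken alone, chance gives about 1 in 20. The groups hold values of the same libraries and are not independent, so that the 9 cannot be set against this rate. Values are CPM scaled within the tissue. The cortex library of WT-nt mouse 24 was the highest of its group in 7 of these: Lx3A at 13547 (next library 5761), Lx3B at 9813 (next 7199), Lx3_Mus at 21913 (next 8678), Lx4A at 14266 (next 8768), Lx4B at 7547 (next 4335), Lx3_Mus_dup9085 at 250 (next 151) and Lx4B_dup4733 at 149 (next 39.1). The same library held 1165192 L1 counts on 52819 elements. Its TMM factors were 0.736 for subfamily sums and 0.45 for single elements, so that its CPM stood above its plain share of L1 counts. As plain shares, WT-nt cortex libraries ranged from 0.619% to 0.745% in Lx3B (median 0.678%) and from 0.79% to 1.05% in Lx4A (median 0.886%). In Lx3A they ranged from 0.462% to 0.997% (median 0.519%) and in Lx3_Mus from 0.785% to 1.61% (median 0.857%). The cortex library of TS-nt mouse 27 was the lowest of its group in Lx3B, at 4126 (next 5886). The cortex library of WT-nt mouse 29 was the highest of its group in Lx3C_dup1451, at 88.9 (next 46.4).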

How the results depend on the processing

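No called value changed its sign under any alternative run. With DESeq2 and 4 groups, 4 subfamilies were called in TS-nt vs. WT-nt of cortex and 2 in the interaction of cortex, where edgeR called 0. Leaving out each library in turn gave 0 to 2 calls in TS-nt vs. WT-nt of cortex, with 2 without WT-nt mouse 29 (Lx3A and Lx4A) or mouse 33 (Lx3A and Lx4B), and 0 in the 11 other comparisons. Sums over elements that pass the filter gave 1 call in TS-t vs. WT-t of cortex (Lx3B, -0.22, adjusted p = 0.08). Between tissues within a condition, sums without the most abundant element gave 0 calls in TS-t (1 in the main analysis) and 0 in WT-t (3), and leaving out the 9 cortex libraries that stood apart gave 2 in TS-t (1 of them higher in cortex) and 2 in WT-nt (4). With the mouse as a replicate block, 4 subfamilies and 75 copies (43 higher in cortex) were called between tissues, against 5 and 72. With elements of at least 10 counts, 1365 of 10726 copies were called between tissues, and in at least 1 group comparison 4642 of 9232 in cortex and 1990 of 5463 in hippocampus. Without a filter these were 6862 of 16812 and 2434 of 11408. The shares of all L1 elements called are not given for the mouse block or for these filters. The counts of copies are thus not set against a background, and the cause of these numbers was not tested. DESeq2 with only the groups compared called 1 copy in each tissue, and with 4 groups 1 in hippocampus. On a log2(CPM + 1) scale, Lx4B_dup4733 in TS-t vs. WT-nt of cortex differed by 0.88 (exact permutation p = 0.0486). Without WT-nt mouse 24, an alternative chosen after seeing the data, its mean CPM differed by 51.1 (exact permutation p = 0.00327). Without its highest library, of TS-t mouse 8, mean CPM differed by 29.4 (exact permutation p = 0.155). Of the values of single subfamilies and copies, outside those that leave out 1 library, 30 passed the threshold only under an alternative. In the same set, 17 no longer passed it and 3477 kept their side. Over all alternatives, with those that leave out 1 library included, 430 of 6905 uncalled values had another sign.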
